A study of Homo sapiens with 6 samples.

Results

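ACTB and GAPDH are 2 of the 1047 sequences quantified in the 6 libraries. They were taken as the only 2 entries whose names hold a RefSeq transcript identifier, NM_001101.3 for ACTB and NM_002046.5 for GAPDH. ACTB encodes beta-actin, a cytoskeletal protein of nearly every cell, and GAPDH encodes the glycolytic enzyme glyceraldehyde-3-phosphate dehydrogenase. The other 1045 entries, most of which bear names of repeat families, are called repeats here by that contrast alone. Both transcripts are abundant, spliced, polyadenylated mRNAs made by RNA polymerase II, and both are widely used as reference genes on the assumption that their level is steady. The RNA exosome, the 3' to 5' nuclease complex that the study targets, degrades and trims many classes of RNA in the nucleus and cytoplasm.

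The libraries came from H1, an established line of human embryonic stem cells, at passages 40 to 60, and in all cells doxycycline switches on a short hairpin RNA directed at EXOSC3, a core subunit of the exosome. EXOSC3r cells also held a transgene that resists the hairpin, and 2 clones were sequenced, each with doxycycline (dox) and without it. PB cells held an empty vector, with 1 library with dox and 1 without, and their labels name no clone. EXOSC3 itself and pluripotency marker genes were not analysed here, so neither the depletion nor the cell type was checked on genes. HERVH, a retrovirus known to be transcribed in human pluripotent cells, was present at 20520 to 35679 scaled counts per library of equal size (CPM) in every library. It was not level between groups, and its changes stand beside the results they move with. LTR7A, LTR7B and LTR7Y, repeats also known to be transcribed in such cells, did not all move as HERVH did. With dox in PB cells HERVH went from 28393 to 35679 CPM, while LTR7A went from 7083 to 6271 CPM and LTR7B from 3376 to 2559 CPM. LTR7Y was near level there, at 5445 and 5267 CPM. In both clones HERVH and these LTR7 sequences were all lower with dox.

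The 1047 sequences together took between 3745262 and 5260196 estimated counts per library, and these totals are not sequencing depth. Alu, the abundant short interspersed repeat, took between 32.99% and 52.5% of them. Clone 1 of the EXOSC3r cells stood apart: Alu took 52.5% of its counts with dox and 45.4% without, above the 4 libraries of clone 2 and PB cells.

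ACTB lies on the minus strand of chromosome 7, and GAPDH lies on the plus strand of chromosome 12. By GENCODE v29's own RefSeq table on GRCh38, the ACTB entry corresponds to ENST00000646664.1 (chr7:5527148-5530601, 6 exons, 375 codons) and the GAPDH entry to ENST00000229239.9 (chr12:6533927-6538371, 9 exons, 335 codons). The deposited entries are 1852 and 1421 bases long, against 1812 and 1875 bases for these GENCODE transcripts, so the GENCODE transcripts stand in for the entries only in part. Both genes have many copies that were inserted in the genome by reverse transcription of their mRNA. The annotation holds 10 pseudogenes named ACTBP and 62 named GAPDHP. The first 90 coding bases are shown for each gene beside 2 of its relatives, because these relatives have no entry named for them in the tables. Capitals mark positions at which the 3 sequences of a set are not all alike.
ACTB: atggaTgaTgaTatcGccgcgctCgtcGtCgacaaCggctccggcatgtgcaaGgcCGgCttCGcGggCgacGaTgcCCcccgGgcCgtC
ACTBP2: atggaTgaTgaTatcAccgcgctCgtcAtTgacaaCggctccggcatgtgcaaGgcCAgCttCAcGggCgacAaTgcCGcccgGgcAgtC
ACTG1: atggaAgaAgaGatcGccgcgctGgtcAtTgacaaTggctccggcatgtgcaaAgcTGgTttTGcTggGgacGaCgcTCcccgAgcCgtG
GAPDH: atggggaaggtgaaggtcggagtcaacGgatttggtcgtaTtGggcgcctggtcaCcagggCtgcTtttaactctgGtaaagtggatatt
GAPDHP1: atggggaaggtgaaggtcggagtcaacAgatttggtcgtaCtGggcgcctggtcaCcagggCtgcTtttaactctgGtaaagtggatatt
GAPDHP65: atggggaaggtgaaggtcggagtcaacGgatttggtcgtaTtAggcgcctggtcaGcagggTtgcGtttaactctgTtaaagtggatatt

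Over these 90 bases ACTBP2 (chromosome 5, 77784881 to 77786003), a processed pseudogene, differed from ACTB at 8 positions. ACTG1 (chromosome 17, 81509971 to 81523847), which encodes gamma-actin, the other cytoplasmic actin, differed at 17. GAPDHP1 (chromosome X, 39787132 to 39788136) differed from GAPDH at 2 positions and GAPDHP65 (chromosome X, 46439709 to 46440714) at 5. The GAPDH set was thus the more alike, with 7 varying positions against 23 in the actin set.

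Along the whole GENCODE transcript, 30.02% of the 31-base words of ACTB also occurred in transcripts of 38 other genes, 27 of them pseudogenes. The relatives with the most shared words were ACTBP2, with 10.4% of the words of ACTB, and POTEI, a gene with an actin-like part, with 7.80%, while ACTG1 shared 4.26%. For GAPDH the share was 34.3%, in 43 other genes, of which 42 were pseudogenes, led by GAPDHP1 with 15.3% and GAPDHP65 with 10.9%. Within the coding parts the shares were 46.4% for ACTB and 63.8% for GAPDH. The counts given to both entries were whole numbers in all 6 libraries (tolerance 0.001), as for 236 of the 698 entries with at least 10 estimated counts before rounding, so none of their reads were split with a repeat. Reads of pseudogenes and related genes within the 2 counts were not separated, and their part in the values below was not tested.

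**Figure D1:**
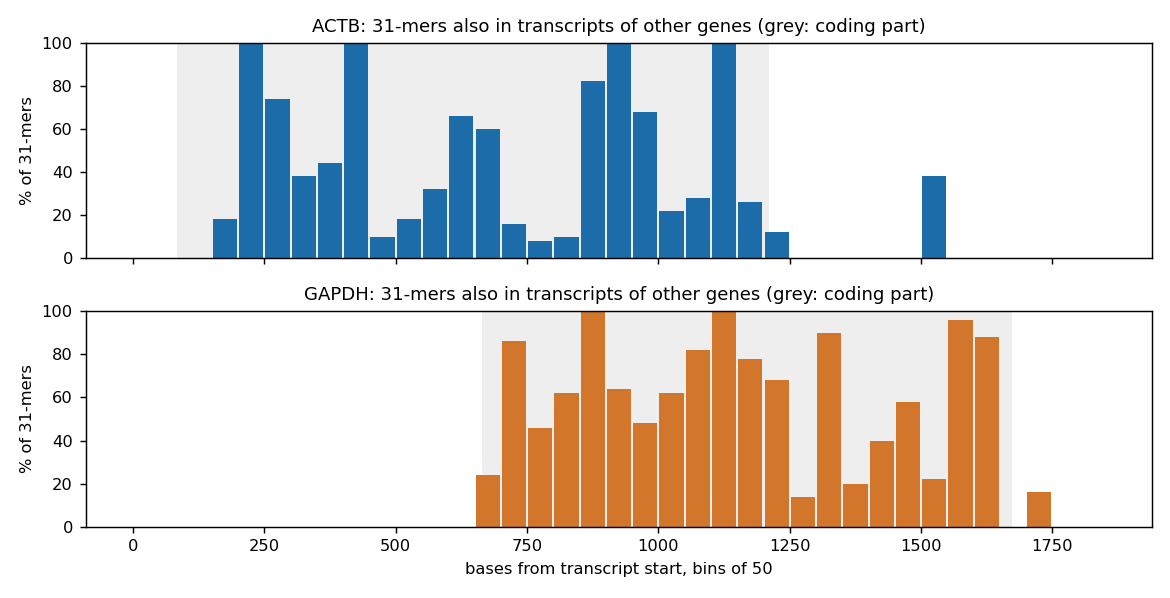
Share of 31-base words of the ACTB (top) and GAPDH (bottom) GENCODE transcripts that also occur in transcripts of other genes, in bins of 50 bases from the transcript start; grey marks the coding part. The shared words lie mostly in the coding parts, where they make up 46.4% for ACTB and 63.8% for GAPDH.

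GAPDH and ACTB were among the most counted entries of every library. By counts GAPDH ranked 2nd or 3rd and ACTB 3rd or 4th of 1047, alongside Alu and L1HS, the youngest human L1 element. In the deposited TPM (an abundance per effective length, scaled to the same total over these 1047 sequences in each library), Alu ranked 1st, GAPDH 2nd and ACTB 3rd in all 6 libraries. The GAPDH level in TPM was between 1.96 and 2.37 times that of ACTB, and GAPDH was above ACTB in 6 of 6 libraries.

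The share of all assigned counts was compared first. It scales each library by its own total, of which Alu is a large part. ACTB took 6.47% of counts with dox and 6.55% without in EXOSC3r clone 1. In clone 2 it took 5.17% with dox and 5.47% without, and in PB cells 5.10% with dox and 4.82% without. The dox libraries were thus slightly lower in both clones and slightly higher in PB cells, and clone 1 was above the other lines in either state.

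GAPDH took 9.69% of counts with dox and 10.4% without in clone 1. In clone 2 it took 8.93% with dox and 8.86% without, and in PB cells 7.54% with dox and 8.57% without. For GAPDH the dox library was lower in clone 1 and PB cells and slightly higher in clone 2. The PB library with dox had the lowest GAPDH share of the 6. Every 95% Clopper-Pearson interval lay within 0.0289 percentage points of its share (for PB cells without dox, 4.80% to 4.84% for ACTB and 8.54% to 8.59% for GAPDH), and these intervals cover counting error only. In RNA from bulk cultures, fewer cells of a kind and less RNA per cell cannot be told apart.

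Summed over both transcripts, the share was 16.2% with dox and 16.99% without in clone 1, 14.1% with dox and 14.3% without in clone 2, and 12.6% with dox and 13.4% without in PB cells. The dox library had the lower summed share in each of the 3 lines, but this did not hold with other denominators. Relative to the total of all repeats, the summed change with dox on the log2 scale was -0.087 in clone 1, -0.027 in clone 2 and -0.095 in PB cells, a mean of -0.070 ± 0.037 (SD, n = 3 lines, exact two-sided sign-flip permutation p = 0.25). That p is the smallest 3 lines can give. Against repeats other than Alu the lines went both ways, with 0.19 in clone 1, -0.085 in clone 2 and -0.22 in PB cells, and so they did in deposited TPM, with -0.26, -0.00060 and 0.040 in the same order. This sum was examined after the single values were seen.

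Set against the repeats other than Alu, the spread between lines was wider. The ACTB count was 20.7% of the count of those repeats with dox and 17.4% without in clone 1, 11.3% with dox and 12.5% without in clone 2, and 9.39% with dox and 9.78% without in PB cells. The GAPDH count was 30.95% with dox and 27.8% without in clone 1, 19.5% with dox and 20.2% without in clone 2, and 13.9% with dox and 17.4% without in PB cells. From the lowest to the highest library this ratio spanned 2.20-fold for ACTB and 2.23-fold for GAPDH, against 1.36-fold and 1.39-fold for the shares of all counts. Both clones lay above both PB libraries for each transcript. Alu did the same, with a lowest ratio of 87.7% in the clones and a highest of 75.6% in PB cells. How many of all sequences part the groups in this way was not counted.

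**Figure D2:**
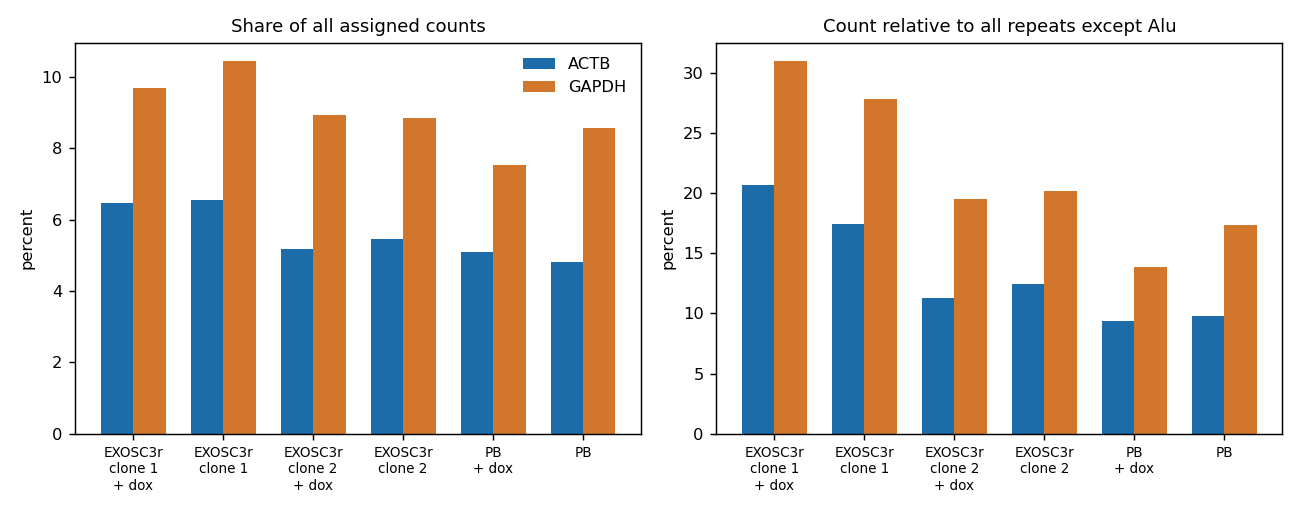
Bars give ACTB and GAPDH in each of the 6 libraries, as a percentage of all assigned counts (left) and relative to the count of all repeats except Alu (right). Clone 1 is highest in both panels, with 6.47% and 6.55% for ACTB, and the PB libraries are lowest on the right, at 9.39% and 9.78% for ACTB.

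Relative to Alu, ACTB and GAPDH varied less than relative to the other repeats. The ACTB count was 12.3% of the Alu count with dox and 14.4% without in clone 1, 12.9% with dox and 13.1% without in clone 2, and 15.5% with dox and 12.9% without in PB cells. The GAPDH count was 18.5% of the Alu count with dox and 22.998% without in clone 1, 22.2% with dox and 21.2% without in clone 2, and 22.9% with dox and 22.97% without in PB cells. The ratio to Alu spanned 1.26-fold for ACTB and 1.25-fold for GAPDH over the 6 libraries. The lowest ratio of either transcript was in clone 1 with dox, the library with the highest Alu share.

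ACTB was then compared with GAPDH within each library, a ratio that no scaling between libraries alters. The ACTB count was 0.667 of the GAPDH count with dox and 0.627 without in clone 1, 0.579 with dox and 0.617 without in clone 2, and 0.677 with dox and 0.563 without in PB cells. The ratio was higher with dox in clone 1 and PB cells and lower in clone 2. The widest change was in PB cells, 1.20-fold or 0.27 on the log2 scale, against 0.090 in clone 1 and -0.090 in clone 2. The mean change was 0.089 ± 0.18 (SD, n = 3 lines, exact two-sided sign-flip p = 0.75), and it was -0.00013 without the PB line. The PB library without dox had the lowest ratio of the 6 and the one with dox the highest, so the 2 PB libraries span the whole range.

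No ratio passed a test of its change with dox, and 3 lines cannot give an exact p below 0.25. For the 5 ratios examined the exact p-values lay between 0.5 and 1, and between 0.94 and 1.00 after Benjamini-Hochberg adjustment over the 5. The mean log2 change of the ratio to Alu was 0.0041 ± 0.24 for ACTB and -0.085 ± 0.21 for GAPDH. The mean log2 change of the ratio to the total of all repeats, Alu included, was -0.015 ± 0.078 for ACTB and -0.104 ± 0.103 for GAPDH (SD, n = 3 lines each). With Alu left out of that total it was 0.015 ± 0.20 for ACTB and -0.074 ± 0.24 for GAPDH.

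**Figure D3:**
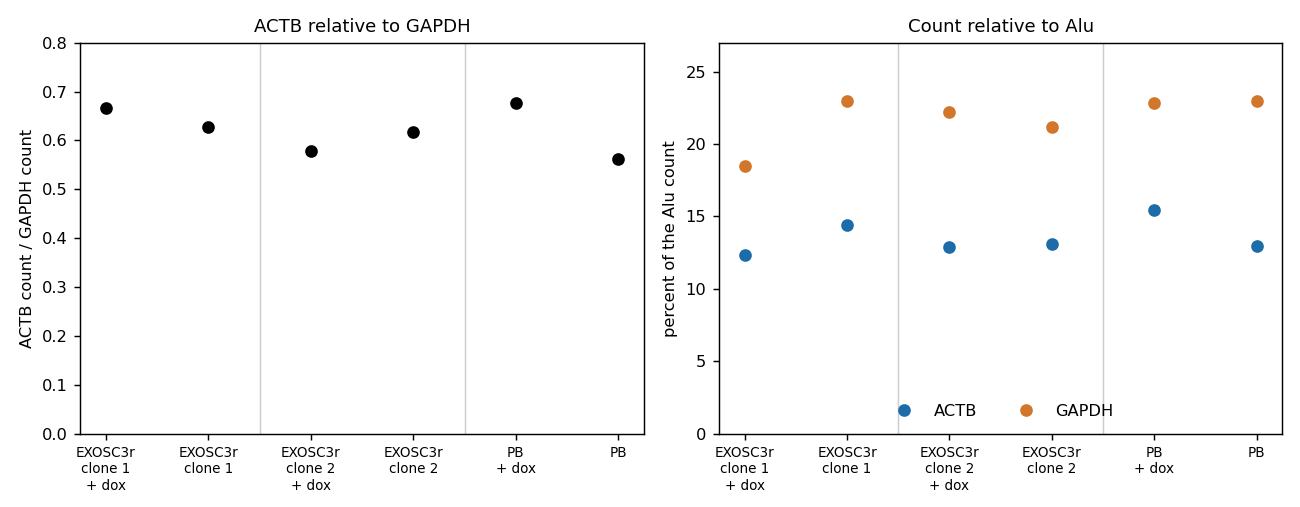
Points give, for each of the 6 libraries, the ACTB count over the GAPDH count (left) and the ACTB and GAPDH counts as a percentage of the Alu count (right); grey lines part the 3 lines. The ACTB to GAPDH ratio stays between 0.563 and 0.677, with the 2 PB libraries at its ends, and clone 1 with dox has the lowest ratios to Alu, 12.3% and 18.5%.

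The 5 comparisons of the design were then made with edgeR's quasi-likelihood test on all 699 tested sequences. Values here are CPM scaled by TMM, a factor per library that centres on the bulk of the sequences, which are repeats. With dox, ACTB was at 86963 CPM in clone 1 and 47176 CPM in clone 2, against 74960 CPM and 53863 CPM without. ACTB was thus higher with dox in clone 1 and lower in clone 2, and the 2 groups overlapped. The log2 change in EXOSC3r cells was 0.058 ± 0.30 (SE, edgeR adjusted p = 1.00). GAPDH was at 130342 CPM in clone 1 and 81440 CPM in clone 2 with dox, against 119578 CPM and 87349 CPM without. It moved as ACTB did, up in clone 1 and down in clone 2 (log2 change 0.033 ± 0.25, edgeR adjusted p = 1.00). These errors hold the difference between the clones. With the line as a replicate block, which pairs the libraries of a clone, the changes were 0.012 ± 0.097 for ACTB and 0.012 ± 0.058 for GAPDH, and neither passed. When the dox library of clone 1 or the untreated library of clone 2 was left out, both changes turned negative, to -0.46 and -0.17 for ACTB and to -0.35 and -0.18 for GAPDH. Such a fit no longer balances the clones, so the level of clone 1, high in both states, enters the change. In this comparison 0.143% of all sequences passed, and neither transcript was among them. HERVH had a log2 change of -0.42 ± 0.085 here and did not pass (edgeR adjusted p = 0.39).

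In PB cells ACTB was at 42086 CPM with dox and 42271 CPM without, a log2 change of -0.0063 ± 0.42 (edgeR adjusted p = 1.00). GAPDH was at 62145 CPM with dox and 75120 CPM without, a log2 change of -0.27 ± 0.35 (edgeR adjusted p = 1.00). Neither passed, where 0.858% of all sequences did. Each PB group is a single library, so its error is borrowed from the spread between the EXOSC3r clones. With the line as a block the changes were the same, with an SE of 0.14 for ACTB and 0.082 for GAPDH, and neither passed.

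The dox response in EXOSC3r minus that in PB cells was 0.065 ± 0.51 on the log2 scale for ACTB and 0.31 ± 0.43 for GAPDH (edgeR adjusted p = 1.00 for both). No sequence passed in this comparison (0%), with 9 of 699 at an unadjusted p under 0.05 and 3 calls by DESeq2. Without the clone 1 library with dox, the ACTB value was -0.45 ± 0.33 and the GAPDH value -0.079 ± 0.33. Without the clone 2 library lacking dox they were -0.16 ± 0.53 and 0.091 ± 0.52. The ACTB direction thus rests on both of these libraries, and the GAPDH direction on the clone 1 library with dox. These fits, too, no longer balance the clones.

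Between EXOSC3r and PB cells the differences were larger. Under dox ACTB averaged 67070 ± 28130 CPM (SD, n = 2) in EXOSC3r cells, while PB cells had 42086 CPM, for a log2 difference of 0.67 ± 0.37 (SE, edgeR adjusted p = 0.76). GAPDH averaged 105891 ± 34580 CPM (SD, n = 2) in EXOSC3r cells, while PB cells had 62145 CPM, for a log2 difference of 0.77 ± 0.32 (edgeR adjusted p = 0.61). Both clones were above the PB library for each transcript and for Alu, clone 1 by much more than clone 2. How many of all sequences part the groups in this way was not counted here either. Neither transcript passed, where 1% of all sequences did, although only 72 and 55 of the 699 sequences had a larger difference than ACTB and GAPDH. HERVH was lower in EXOSC3r cells in the same comparison, by a log2 difference of -0.78 ± 0.10 (edgeR adjusted p = 0.035), and its part in the differences of ACTB and GAPDH was not tested. LTR7Y was also lower in both clones than in PB cells. LTR7B was not, at 3319 CPM in clone 1 and 2597 CPM in clone 2 against 2559 CPM in PB cells. LTR7A was at 7363 CPM in clone 1 and 5230 CPM in clone 2, on either side of 6271 CPM in PB cells.

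These values under dox depend on the clone 1 library. Without it the log2 difference was 0.16 ± 0.25 for ACTB and 0.39 ± 0.25 for GAPDH (edgeR adjusted p = 1.00 for both). Without the clone 2 library with dox it was 1.05 ± 0.22 for ACTB and 1.07 ± 0.22 for GAPDH, and both passed (edgeR adjusted p = 0.039 and 0.035). Each of these fits sets 1 EXOSC3r library against 1 PB library and assumes that they vary like the 2 clones without dox. Only that pair gives residual spread, and edgeR draws it toward the spread of all sequences. With the line as a replicate block GAPDH passed as well, at 0.73 ± 0.073 (edgeR adjusted p = 0.018), and ACTB did not, at 0.61 ± 0.12 (edgeR adjusted p = 0.10). With the block, a comparison between lines is no longer set against how far the clones differ.

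Without dox ACTB averaged 64412 ± 14920 CPM (SD, n = 2) in EXOSC3r cells, while PB cells had 42271 CPM, for a log2 difference of 0.61 ± 0.37 (SE, edgeR adjusted p = 0.97). GAPDH averaged 103463 ± 22790 CPM (SD, n = 2) in EXOSC3r cells, while PB cells had 75120 CPM, for a log2 difference of 0.46 ± 0.31 (edgeR adjusted p = 0.97). Again both clones were above the PB library for each transcript and for Alu, and neither transcript passed. The share of all sequences for which this held was not counted. When the untreated library of clone 1 was left out, the difference was 0.35 ± 0.43 for ACTB and 0.22 ± 0.39 for GAPDH (edgeR adjusted p = 0.99 for both). No sequence passed in this comparison (0%), with 16 of 699 at an unadjusted p under 0.05 and 0 calls by DESeq2. Alu moved the same way as both transcripts, by 0.51 ± 0.38 without dox and 0.98 ± 0.39 under dox (edgeR adjusted p = 0.97 and 0.61). Whether Alu and the 2 transcripts have a shared source was not tested.

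**Figure D4:**
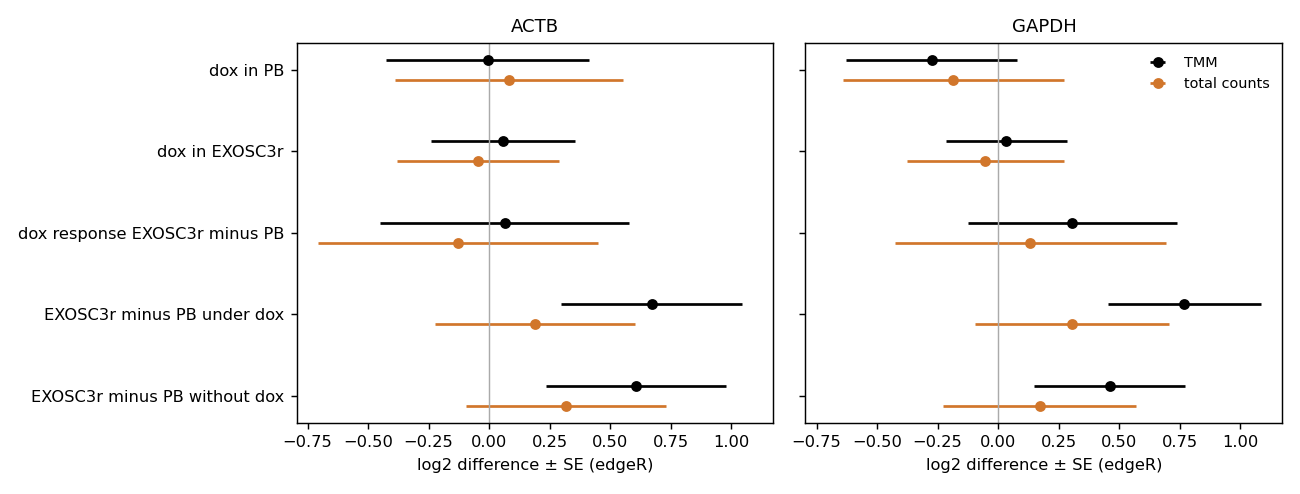
Points give the log2 difference and bars its SE (edgeR) for ACTB (left) and GAPDH (right) in the 5 comparisons, with TMM scaling (black) and with total counts (orange). The EXOSC3r minus PB values lie above 0 with either scaling and are smaller with total counts, 0.19 in place of 0.67 for ACTB under dox.

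The size of these differences turned on what ACTB and GAPDH were measured against. With total counts the EXOSC3r minus PB difference under dox was 0.19 ± 0.41 for ACTB and 0.30 ± 0.40 for GAPDH, while the median of all sequences moved by -0.40. Relative to that median the values were 0.58 for ACTB and 0.70 for GAPDH. Without dox they were 0.32 for ACTB and 0.17 for GAPDH, with a median shift of -0.26, or 0.58 and 0.43 relative to it. Against the median sequence the transcripts were thus higher in EXOSC3r than in PB cells, and none of these differences passed. A change of scaling shifts all sequences by nearly the same amount, so subtracting the median cancels most of it. The values relative to the median with total counts are therefore no separate check on those with TMM.

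The errors of ACTB and GAPDH were wide for their abundance. Among the 253 sequences with a mean of at least 100 CPM, 2 had a larger SE than ACTB and 5 a larger SE than GAPDH in each of the 5 comparisons. Under dox the SE of EXOSC3r minus PB was 0.37 for ACTB and 0.32 for GAPDH, against a median of 0.10 for the 253. The counts behind them were between 193695 and 509918 per library.

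How steady the 2 transcripts were over the 6 libraries was therefore described with each scaling. With TMM the SD of log2 CPM was 0.44 for ACTB and 0.41 for GAPDH, against a median of 0.086 for the 253 sequences, and 97.2% and 96.4% of them varied less. Among the 20 most abundant sequences only Alu, at 0.49, varied more than ACTB. With total counts the order turned round: the SD was 0.19 for ACTB and 0.16 for GAPDH, below the median of 0.27 for 255 sequences, and 13.3% and 5.88% of them varied less. GAPDH then had the lowest SD of the 20 most abundant sequences. ACTB and GAPDH thus varied less than most sequences as a share of all counts and more than most against the bulk of the repeats. The total holds both transcripts and Alu, which moved with them, so a low SD of their share is partly built in. TMM centres on the bulk of the sequences, so the low median SD with TMM is partly built in as well. TMM factors ran from 0.744 in clone 1 with dox to 1.21 in PB cells with dox.

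**Figure D5:**
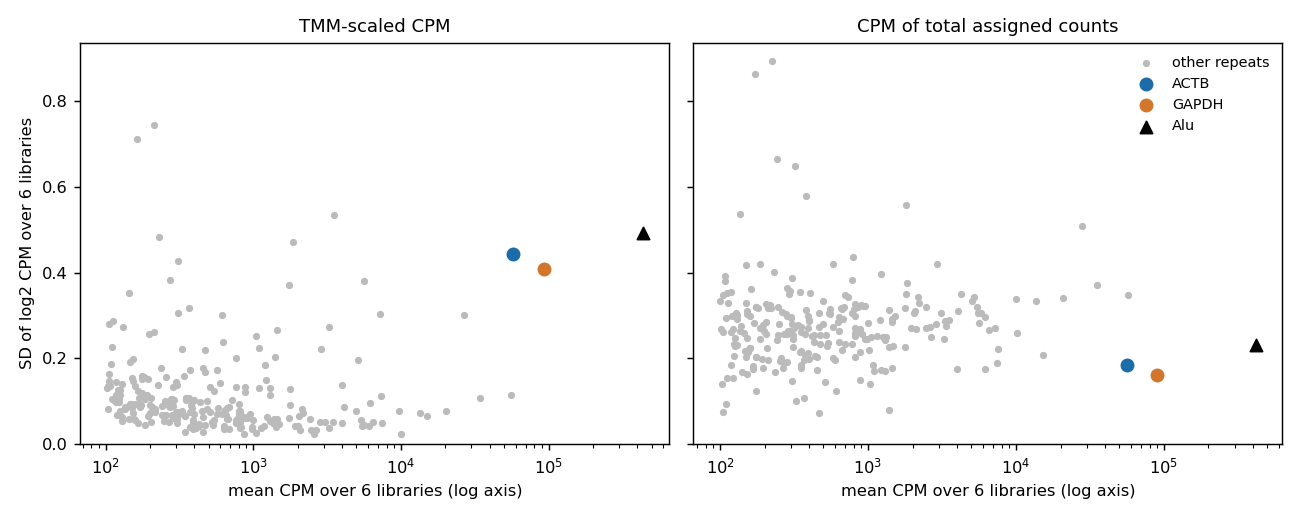
Each point is a sequence with a mean of at least 100 CPM, placed by its mean CPM over 6 libraries (log axis) and the SD of its log2 CPM, with TMM scaling (left) and with total counts (right). ACTB and GAPDH lie among the most variable sequences on the left, at 0.44 and 0.41, and below the median on the right, at 0.19 and 0.16.

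The sequences whose level over the 6 libraries was most like that of each transcript were found by the Pearson correlation of log2 TMM-scaled CPM among the other 252 sequences. This is a description over 6 libraries of 3 lines that share the same scaling factors, not a test. The files do not say what HSFAU and UHG are. For ACTB the 5 most alike were HSFAU (r = 0.985), L1MD2 (0.982), PRIMA4_I (0.972), GAPDH (0.972) and Alu (0.971). For GAPDH they were UHG (0.995), LOR1I (0.995), HSFAU (0.991), PRIMA4_I (0.983) and Alu (0.980), with ACTB 9th. HERVH and L1HS ran the other way, with r of -0.53 and -0.56 with ACTB and -0.63 and -0.74 with GAPDH.

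A high correlation did not mean a like range. HSFAU was at 5591 CPM with dox and 4653 CPM without in clone 1, 2999 CPM with dox and 3258 CPM without in clone 2, and 2155 CPM with dox and 2420 CPM without in PB cells. UHG was at 2713 CPM with dox and 2399 CPM without in clone 1, 1671 CPM with dox and 1758 CPM without in clone 2, and 1126 CPM with dox and 1412 CPM without in PB cells. HSFAU and UHG ranged at least as widely as the 2 transcripts, with clone 1 highest and PB cells lowest. L1MD2, by contrast, stayed between 376 and 420 CPM.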

How the data were processed

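Stranded libraries were made from Trizol-extracted total RNA after removal of ribosomal RNA, per the labels' protocols. The submitters' processing notes name Salmon 0.13.0, Trimmomatic 0.36 and bcl2fastq 2.17; how the index was built, the options and the genome build are not given in the sources used here. Per the file headers, each deposited table lists for each sequence its length and effective length, an estimated count and its TPM. The deposited TPM values sum to the same total over the 1047 sequences of the table alone, so that Alu, with the most TPM, lowers all others where it is high.

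Estimated counts were rounded to whole numbers. Sequences with at least 10 counts in at least 1 library were tested (699), in edgeR 4.0.16 (R 4.3.3) with TMM factors, 4 group means and Benjamini-Hochberg adjustment over all sequences at 0.05. The clones alone give the fit its 2 residual degrees of freedom, and the biological coefficient of variation was 12.2%. The SE is the log2 change over the square root of the F statistic. P-values measure the spread between clones, which edgeR draws toward the spread of all sequences. No 2 libraries were copies (chi-square over its degrees of freedom was 21.3 to 871). The code was tested on simulated data.

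Libraries of a clone with and without dox come from the same line, so clone numbers pair them. The deviations of clone 1 from the clone mean in both states had a Pearson correlation of 0.15 across 699 sequences, which are not independent replicates. For the 2 transcripts the log2 deviation had the same sign in both states. It was 0.24 without dox and 0.44 with dox for ACTB, and 0.23 and 0.34 for GAPDH. The main fit does not use this pairing, and the fit with the line as a block does. The 2 PB libraries were taken as 1 line. Ratios of counts within a library were compared over 3 lines by an exact sign-flip permutation test, which cannot go below 0.25. The labels name no sequencing batch.

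Alternatives were other scalings, filters and tools (DESeq2 1.42.0, limma 3.58.1 on log2(TPM + 1) and log2(TPM + 0.1)), the line as a block, and leaving out each clone library or line. ACTB and GAPDH are always named. Alu, the 5 sequences most like each and abundant repeats could be named beside them. HERVH and LTR7 sequences were to describe the cell type, and no cell type was named from them. The members and lists were chosen with earlier results of these data known. Words of 31 bases were compared with all GENCODE v29 transcripts on the same strand.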

Additional observations from a re-analysis of the deposited data

Results flagged for a closer look

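With dox the ratio of ACTB to Alu moved up in PB cells and down in both EXOSC3r clones, with log2 changes of -0.23 in clone 1, -0.020 in clone 2 and 0.26 in PB cells, a difference of -0.38 between EXOSC3r and PB cells. The ratio of ACTB to all repeats, Alu included, split likewise, with -0.032 in clone 1, -0.083 in clone 2 and 0.070 in PB cells. The difference between EXOSC3r and PB cells was -0.13. Alu is the most counted entry of that total, so these ratios are not separate measures. Neither difference was tested, since PB cells gave 1 pair of libraries. Against repeats other than Alu the split was not seen (0.25 in clone 1, -0.14 in clone 2 and -0.059 in PB cells).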

How the results depend on the processing

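In log2 units, no dox response of either transcript passed with any alternative. Total counts turned the sign of ACTB in PB cells (0.082), of ACTB and GAPDH in EXOSC3r cells (-0.046 and -0.052) and of the ACTB difference of responses (-0.13). Limma on TPM, with a pseudocount of 1 or 0.1 (values equal to 2 decimals), turned ACTB in PB cells (0.22), ACTB and GAPDH in EXOSC3r cells (-0.13 and -0.12), their difference of responses (-0.35 and -0.078) and EXOSC3r minus PB under dox (-0.18 and -0.059). In TPM the median of all sequences under dox moved by -0.70 with a pseudocount of 1 and -0.77 with 0.1. Relative to it the last pair were 0.52 and 0.64 with 1, and 0.59 and 0.71 with 0.1. Here too, subtracting the median cancels most of the scaling, so this is no separate check. With the replicate block GAPDH passed for EXOSC3r minus PB under dox (0.73); the block changed no other call of the 2 transcripts, while over all sequences calls went to 22 (main 7) there and to 9 (main 1) for dox in EXOSC3r cells. Leaving out each clone library gave -0.46 to 0.43 (ACTB) and -0.35 to 0.33 (GAPDH) for dox in EXOSC3r cells, -0.45 to 0.44 and -0.079 to 0.61 for the difference of responses, 0.16 to 1.05 and 0.39 to 1.07 for EXOSC3r minus PB under dox, and 0.35 to 0.83 and 0.22 to 0.68 without dox. In PB cells it gave -0.0065 to -0.0050 and -0.274 to -0.272. Leaving out each line moved the mean dox change of ACTB to GAPDH between -0.00013 and 0.18. For ACTB and GAPDH to Alu it lay between -0.12 and 0.12 and between -0.16 and 0.031. For ACTB and GAPDH to all repeats, Alu included, it lay between -0.058 and 0.019 and between -0.16 and -0.058. ACTB to Alu was -0.0027 with TPM, and ACTB to repeats without Alu 0.015. The SD of log2 CPM fell to 0.19 (ACTB) and 0.16 (GAPDH) with total counts. Summing Alu rows changed nothing, as there is 1. The causes were not tested.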
